A study of Mus musculus with 20 samples.

Results

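Stellate cell and extracellular matrix genes were followed in liver RNA from 20 individual female mice, with 42 genes listed by symbol among 35504 genes in the count table. The listed genes are markers of hepatic stellate cells and components or processors of the matrix around them. Mice formed 4 groups of 5, labelled Con.Sed (vehicle diet, sedentary), Con.VWR (vehicle diet with voluntary wheel running), OC.Sed (oral combined contraceptives in the diet, sedentary) and OC.VWR (contraceptives and running). The strain, the age and the hormones and dose of the contraceptives are not given in the sources used here. Of the 42 members 40 had an intact line in the table and 39 passed the filter on low counts. Postn, which encodes the matrix protein periostin, had a displaced line, and Lox, which encodes a collagen and elastin cross-linking oxidase, had a line that was left undecided. Timp1, an inhibitor of matrix metalloproteinases, was intact but too low to test. None of 21 collagens looked for beside the members had an intact line, so the collagens themselves are not analysed here.

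Hepatic stellate cells are the pericytes of the liver sinusoid. In the healthy liver they store vitamin A as retinyl esters and produce growth factors for hepatocytes, and after injury they become the main source of scar matrix. The matrix proteins in the list fall into small leucine-rich proteoglycans that bind collagen fibrils, proteins of elastic fibres and microfibrils, adhesive and matricellular glycoproteins, and inhibitors or processors of matrix enzymes. In whole liver most RNA comes from hepatocytes, and Alb averaged 72300 to 137000 CPM (counts scaled to a common library size) in the 4 groups, whereas most members were rare. Because these are bulk samples, fewer stellate cells and less RNA per stellate cell cannot be told apart. Which cells the members' RNA came from was not tested.

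The promoters of Lrat, Reln and Ecm1 are shown because these were the 3 stellate cell markers among the 6 members with the smallest adjusted p for the contraceptives. Each is the reference sequence from 250 bases before to 50 bases after the start of the gene (RefSeq, GRCm38.p6, 300 bases, minus strand, printed 5′ to 3′ of the gene), at chr3:82903925-82904224 for Lrat, chr5:22344656-22344955 for Reln and chr3:95739520-95739819 for Ecm1. Capitals mark matches on either strand to TATAAA (the TATA box), GGGCGG (the GC box bound by SP1-type factors), TGANTCA (the AP-1 element), GGAATG (the TEAD element), the oestrogen response element or TGTTCT (a core of the progesterone and glucocorticoid receptor element).
Lrat: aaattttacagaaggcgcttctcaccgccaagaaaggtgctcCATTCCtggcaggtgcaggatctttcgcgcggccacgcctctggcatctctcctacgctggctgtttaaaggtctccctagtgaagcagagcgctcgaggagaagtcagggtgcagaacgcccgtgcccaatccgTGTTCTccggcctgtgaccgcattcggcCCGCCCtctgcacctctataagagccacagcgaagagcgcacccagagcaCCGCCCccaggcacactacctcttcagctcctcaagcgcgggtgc
Reln: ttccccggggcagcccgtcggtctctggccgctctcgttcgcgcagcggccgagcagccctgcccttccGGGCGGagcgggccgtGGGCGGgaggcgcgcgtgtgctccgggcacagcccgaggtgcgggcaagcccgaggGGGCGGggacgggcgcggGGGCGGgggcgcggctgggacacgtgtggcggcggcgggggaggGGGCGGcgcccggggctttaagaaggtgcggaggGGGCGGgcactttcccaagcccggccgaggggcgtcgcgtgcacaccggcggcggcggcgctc
Ecm1: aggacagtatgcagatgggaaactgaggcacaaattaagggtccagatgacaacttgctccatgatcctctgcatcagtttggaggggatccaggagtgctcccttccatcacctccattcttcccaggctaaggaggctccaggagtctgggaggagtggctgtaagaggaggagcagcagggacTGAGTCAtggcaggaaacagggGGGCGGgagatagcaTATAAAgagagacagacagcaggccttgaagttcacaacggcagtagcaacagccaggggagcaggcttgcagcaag
The Reln window held 6 GC boxes and no other marked motif. The Ecm1 window held 1 AP-1 element, 1 GC box and 1 TATA box, and the Lrat window held 2 GC boxes, 1 TEAD match and 1 TGTTCT match. Of the 25 members called in any comparison 18 had a promoter in the table, as had 28 of the 39 tested members, against 27025 genes in all. GGGCGG was in 11 of the 18 (61.1%) and in 18 of the 28 (64.3%), and in 38.2% of all promoters. TGANTCA was in 2 of the 18 (11.1%) and 8.97% of all, TATAAA in 3 (16.7%) and 15.7%, GGAATG in 2 (11.1%) and 16.6%, and TGTTCT in 3 (16.7%) and 21.3%. CANNTG, the E-box, which is too common to mark, was in 15 (83.3%) and 75.0%, and the oestrogen response element was in 0 of the 18 and 0.074% of all promoters. No marked matches overlap in these windows, and a match describes letters only.

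Measured per kilobase of exon, the members spanned a wide range of level. Fn1, which encodes fibronectin and is made largely by hepatocytes, was the highest, at a mean of 263 CPM per kilobase over the 20 libraries. It was followed by Igfbp7 (84.3), Ecm1 (76.1), Gas6 (60.4), Colec11 (31.5), Dcn (29.7) and Bgn (25.5). The stellate cell marker Lrat was at 5.89, and the lowest tested members were Ltbp1 (0.299) and Fbn1 (0.308). Counting error follows CPM and not the level per kilobase. Group means were 1.87 to 4.92 CPM for Ltbp1, 2.52 to 5.98 CPM for Fbn1 and 0.74 to 2.70 CPM for Fmod. Members at such levels carry more counting error than Fn1 or Ecm1.

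A library of the sedentary vehicle group stood apart, replicate 2, which had the smallest total (10883936 counts, against up to 16134618 in the others). It was the highest of all 20 libraries for 31 of the 39 tested members and the highest of its own 5 for 34. Its Loxl1 was 5.27 times, its Eln 4.68 times, its Thbs1 3.43 times and its Lum 3.02 times the mean of the other 4 sedentary vehicle libraries, all in CPM. Timp1 held 29 counts there and 0 to 5 in every other library. The same library was the lowest of its group for Fn1 (1618 CPM, a ratio of 0.545) and for Ecm1 (165 CPM, a ratio of 0.706). Some genes outside the members were the highest of all 20 libraries there. Examples were the protease Mmp12 (57.1 CPM), the basement membrane gene Nid1 (88.3), the macrophage gene Ccr2 (7.83) and the endothelial gene Lyve1 (23.5). Other genes of these kinds were the lowest of its group there, such as Mmp19 (67.6 CPM), Cd163 (17.5), Stab2 (49.5) and Dnase1l3 (51.5). The macrophage marker list had a mean log2 CPM of 5.13 there, against 4.67 to 4.97 in the other 4. The counts of calls, and the values of members and other genes that this library moved, are therefore given with and without it.

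Contraceptive diet and vehicle diet were compared first over both activities, since this average uses all 20 mice. The members were lower on the contraceptives: 23 of 39 fell and 0 rose, when 22.9% of the 10207 genes tested were called in either direction and 11% were called lower. The median log2 fold change was -0.49 over the members and 0.00 over all genes tested. Without sedentary vehicle replicate 2 there were 18 members that fell and 1 that rose, with 25.5% of all genes called, 12.2% lower and 13.4% higher, and the members' median was -0.35. The 18 were all among the 23, and the 5 lost were Dcn, Bgn, Fbn1, Timp2 and Vim (adjusted p = 0.0506 to 0.0635). The member that rose was Thbs1, a thrombospondin that activates latent TGF-beta, at a log2 fold change of 0.76 (SE 0.23, adjusted p = 0.0173), against 0.48 (adjusted p = 0.213) with that library. A call means an adjusted p under 0.05 in the edgeR quasi-likelihood test, adjusted over all genes tested, and the mean CPM values below carry the standard deviation of 5 mice.

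Among the stellate cell markers 7 of 8 fell. Lrat encodes the acyltransferase that makes the retinyl esters stored in stellate cells. It was at 38.5, 60.1, 41.3, 42.7 and 41.3 CPM in the sedentary vehicle libraries and at 16.2, 18.5, 15.7, 32.7 and 19.3 CPM in the sedentary OC libraries, in replicate order. In running mice it was at 50.7, 51.9, 25.6, 26.8 and 43.5 CPM on vehicle and at 41.4, 14.6, 15.8, 15.9 and 18.0 CPM on the contraceptives. The sedentary groups did not overlap, and in running mice the groups overlapped through replicate 1 of the OC group, which was high, and replicates 3 and 4 of the vehicle group, which were low. The averaged fold was 2.03 (log2 fold change -1.02, SE 0.20, adjusted p = 0.000674), and 1.94 without sedentary vehicle replicate 2.

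Reln encodes reelin, a secreted glycoprotein that in liver marks stellate cells. In sedentary mice it was at 84.2, 80.3, 83.2, 68.7 and 57.3 CPM on vehicle and 45.05, 47.35, 53.2, 64.5 and 34.4 CPM on the contraceptives. In running mice it was at 87.2, 72.7, 67.8, 66.1 and 70.25 CPM on vehicle and 44.3, 55.6, 30.6, 28.2 and 49.7 CPM on the contraceptives. Every running OC mouse was below every running vehicle mouse, and in sedentary mice only vehicle replicate 5 and OC replicate 4 crossed. The averaged log2 fold change was -0.71 (SE 0.12, adjusted p = 0.000276), and -0.69 without sedentary vehicle replicate 2, a library in which Reln was not raised.

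Ecm1 encodes a secreted glycoprotein that in mice keeps latent TGF-beta inactive. It was at 278, 165, 246, 216 and 195 CPM in sedentary vehicle libraries and 132, 121, 188, 193 and 141 CPM in sedentary OC libraries. In running mice it was at 262, 239, 267, 209 and 255 CPM on vehicle and 162, 185, 121, 116 and 148 CPM on the contraceptives. Here sedentary vehicle replicate 2 was low and fell inside the OC range, and the running groups did not overlap. The averaged log2 fold change was -0.63 (SE 0.11, adjusted p = 0.000282), and -0.67 (adjusted p = 8.31e-05) without that library.

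The other stellate cell markers that fell were Rgs5, Hgf, Cygb and Colec11. Rgs5, a pericyte regulator of G protein signalling, averaged 99.5 ± 51.4 and 50.8 ± 18.7 CPM in sedentary vehicle and OC mice and 91.7 ± 16.8 and 53.1 ± 14.0 CPM in running ones (SD, n = 5). Its averaged log2 fold change was -0.88 (SE 0.19, adjusted p = 0.00195), and -0.69 without sedentary vehicle replicate 2, where it reached 190.2 CPM. Hgf, the hepatocyte growth factor, averaged 14.0 ± 3.26 and 9.06 ± 2.39 CPM in sedentary mice and 13.1 ± 3.12 and 8.03 ± 2.23 CPM in running mice, a fold of 1.58 (adjusted p = 0.00281) and of 1.52 without that library. Cygb, a globin of stellate cells, fell 1.41-fold (adjusted p = 0.0097; 1.28-fold without that library), and Colec11, a collectin of innate immunity, fell 1.31-fold (adjusted p = 0.00843; 1.27-fold without it). Des, the muscle-type intermediate filament of stellate cells, did not pass (log2 fold change 0.29, SE 0.40, adjusted p = 0.644). Its sedentary OC mean of 25.0 ± 36.6 CPM came from replicate 3 at 90.4 CPM, with 6.34 to 11.0 CPM in the other 4.

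**Figure D1:**
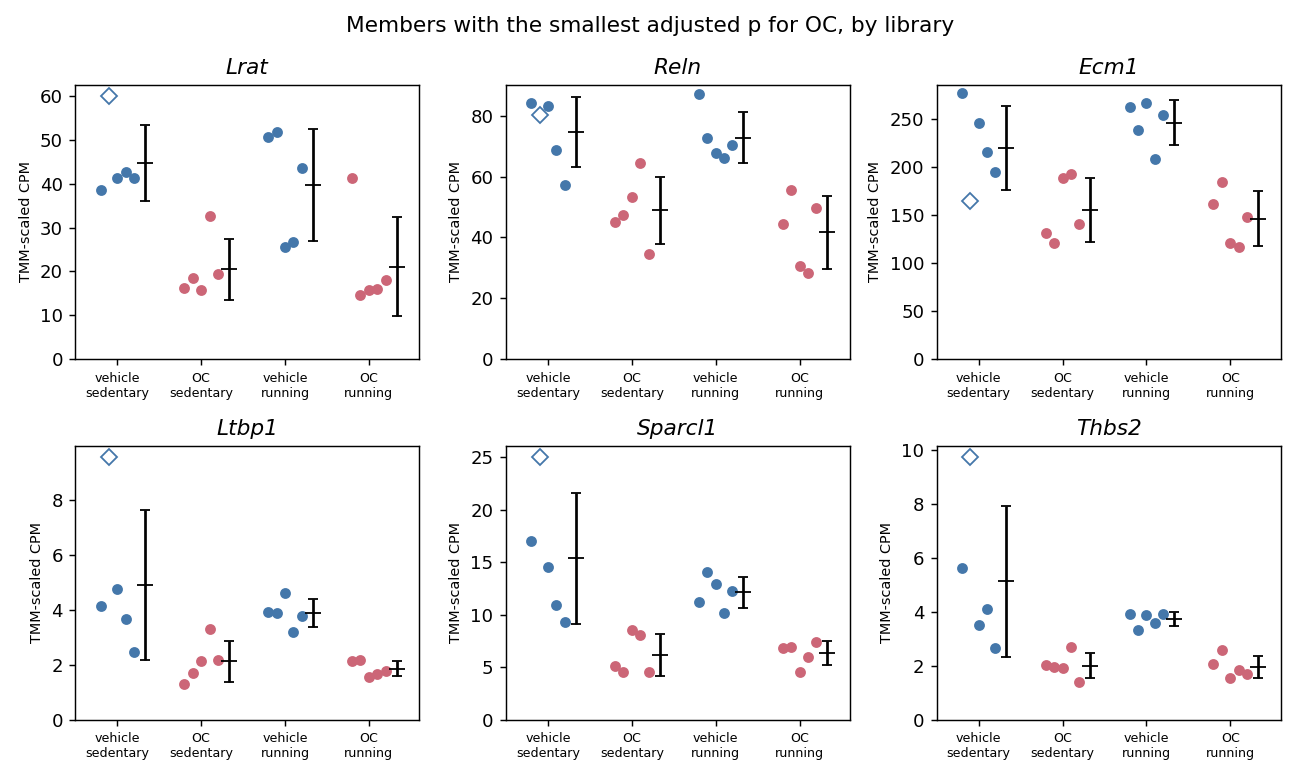
TMM-scaled CPM of Lrat, Reln, Ecm1, Ltbp1, Sparcl1 and Thbs2 in each of the 20 libraries by group, with the mean and standard deviation of 5 mice beside the points; the open diamond is sedentary vehicle replicate 2. That library is the highest of all for Lrat (60.1 CPM), Ltbp1 (9.56), Sparcl1 (25.0) and Thbs2 (9.74) and the lowest of its group for Ecm1 (165).

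Of 6 small leucine-rich proteoglycans 4 fell over both activities. Fmod (fibromodulin) averaged 2.70 ± 1.87 and 1.09 ± 0.70 CPM in sedentary vehicle and OC mice and 1.85 ± 0.62 and 0.74 ± 0.24 CPM in running ones. Its averaged fold was 2.48 (log2 fold change -1.31, SE 0.32, adjusted p = 0.00528), and 2.10 without sedentary vehicle replicate 2. Lum (lumican) fell 1.62-fold (adjusted p = 0.014), and 1.37-fold without that library, where it was at 27.9 CPM against 8.92 to 9.78 in the other 4. Dcn (decorin, 1.28-fold, adjusted p = 0.0287) and Bgn (biglycan, 1.32-fold, adjusted p = 0.0345) lost their calls without it. The call of Dcn was also lost without running vehicle replicate 3 or 5, sedentary OC replicate 2 or running OC replicate 3 or 4 (log2 fold change -0.34 to -0.33, adjusted p = 0.0511 to 0.0565). That of Bgn was also lost without sedentary vehicle replicate 1, running vehicle replicate 1, 3 or 5, sedentary OC replicate 1, 2 or 5, or running OC replicate 1, 3 or 4 (-0.40 to -0.36, adjusted p = 0.0504 to 0.0667). Prelp and Ogn, the remaining proteoglycans of this kind, were at log2 fold changes of 0.22 (adjusted p = 0.123) and 0.12 (adjusted p = 0.719).

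Of 11 tested elastic fibre and microfibril genes 5 fell. Ltbp1 encodes a microfibril protein that holds TGF-beta in its latent complex. Its sedentary values were 4.14, 9.56, 4.76, 3.65 and 2.47 CPM on vehicle and 1.31, 1.69, 2.15, 3.32 and 2.17 CPM on the contraceptives. Its running values were 3.93, 3.88, 4.62, 3.18 and 3.79 CPM on vehicle and 2.13, 2.17, 1.57, 1.68 and 1.77 CPM on the contraceptives. The running groups did not overlap, and in sedentary mice OC replicate 4 exceeded vehicle replicate 5. Its averaged fold was 2.18 (log2 fold change -1.13, SE 0.20, adjusted p = 0.000321), and 1.91 without sedentary vehicle replicate 2.

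Fbln2, a fibulin of basement membranes and elastic fibres, averaged 3.71 ± 1.63 and 2.18 ± 0.97 CPM in sedentary vehicle and OC mice and 3.71 ± 0.56 and 1.70 ± 0.60 CPM in running ones. Its averaged fold was 1.92 (adjusted p = 0.00181), and 1.73 without sedentary vehicle replicate 2. Efemp1 (fibulin-3) fell 1.45-fold (log2 fold change -0.54, SE 0.11, adjusted p = 0.000861) and was little moved by that library (1.42-fold). Efemp2 (fibulin-4) fell 1.43-fold (adjusted p = 0.0245), and 1.30-fold without it. Fbn1, the main microfibril protein fibrillin-1, fell 1.60-fold (adjusted p = 0.0375), a call lost without sedentary vehicle replicate 2 (1.33-fold, adjusted p = 0.0603). It was also lost without sedentary vehicle replicate 3, running vehicle replicate 1, 2 or 5, sedentary OC replicate 1 or 2, or running OC replicate 1, 3 or 4 (log2 fold change -0.69 to -0.63, against -0.68 with all libraries, adjusted p = 0.0508 to 0.0697). Eln (elastin), Fbln1, Fbln5, Ltbp4 and the cross-linking oxidases Loxl1 and Loxl2 did not pass, with log2 fold changes from -0.80 to -0.10.

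Of 8 tested adhesive and matricellular genes 3 fell, Sparcl1, Thbs2 and Mgp. Sparcl1, a matricellular relative of Sparc, had the smallest adjusted p of all members. It was at 17.0, 25.0, 14.5, 10.95 and 9.27 CPM in sedentary vehicle libraries and 5.10, 4.55, 8.52, 8.07 and 4.58 CPM in sedentary OC libraries. In running mice it was at 11.2, 14.1, 12.9, 10.2 and 12.2 CPM on vehicle and 6.85, 6.94, 4.55, 6.0 and 7.43 CPM on the contraceptives. At both activities every OC mouse was below every vehicle mouse, a fold of 2.17 (log2 fold change -1.12, SE 0.16, adjusted p = 3.54e-05) and of 2.0 without sedentary vehicle replicate 2.

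Thbs2 encodes thrombospondin-2, a matricellular glycoprotein that restrains vessel growth. Its sedentary values were 5.63, 9.74, 3.53, 4.09 and 2.65 CPM on vehicle and 2.04, 1.95, 1.92, 2.71 and 1.40 CPM on the contraceptives. Its running values were 3.93, 3.32, 3.88, 3.58 and 3.93 CPM on vehicle and 2.06, 2.59, 1.57, 1.83 and 1.70 CPM on the contraceptives. The running groups did not overlap, and the sedentary groups crossed only at vehicle replicate 5 and OC replicate 4. The averaged fold was 2.20 (log2 fold change -1.14, SE 0.19, adjusted p = 0.000165), and 1.94 without sedentary vehicle replicate 2. Mgp, the matrix Gla protein that inhibits calcification, fell 1.58-fold (adjusted p = 0.0176), and 1.40-fold without that library.

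The other 5 adhesive genes did not pass over both activities with all libraries. Fn1 averaged 2701 ± 708 and 3474 ± 388 CPM in sedentary vehicle and OC mice and 3281 ± 543 and 2822 ± 722 CPM in running ones, with an averaged log2 fold change of 0.07 (SE 0.13). Sparc was at -0.27 (SE 0.15), and at -0.08 without sedentary vehicle replicate 2, where it reached 180.4 CPM against 64.6 to 86.2 in the other 4. Igfbp7 and Gas6, the ligand of the TAM receptors, were at -0.21 (SE 0.11) and -0.06 (SE 0.14).

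Among the inhibitors and processors of matrix enzymes Timp3 fell 1.43-fold (adjusted p = 0.0103), and 1.38-fold without sedentary vehicle replicate 2. Timp2 fell 1.32-fold (adjusted p = 0.0346), a call lost without sedentary vehicle replicate 2 (adjusted p = 0.0531). It was also lost without running vehicle replicate 2, 3 or 5, sedentary OC replicate 1, 2 or 5, or running OC replicate 3 or 4 (log2 fold change -0.40 to -0.36, adjusted p = 0.0503 to 0.068). Pcolce, an enhancer of procollagen cleavage, was at -0.06 (SE 0.13, adjusted p = 0.785). Of the cytoskeletal members Vim fell 1.31-fold (adjusted p = 0.0392, and 0.0635 without sedentary vehicle replicate 2) and Tagln2 1.35-fold (adjusted p = 0.0186, and 1.21-fold without that library), while Tagln was at -0.34 (SE 0.13, adjusted p = 0.0615). An overlapping gene on the opposite strand shares 62.4% of the exon bases of Tagln (Gm48529), 21.3% of those of Timp3 (Syn3) and 20.1% of those of Fbn1 (Gm9913), and since strand use in counting is not stated, reads of these neighbours cannot be told apart from theirs.

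In sedentary mice alone 21 of 39 members fell and 0 rose (53.8%), when 16.3% of all genes were called and 7.2% were called lower. The members' median log2 fold change was -0.62 and that of all genes -0.01. Without sedentary vehicle replicate 2 the count was 10 lower and 1 higher (28.2%), with 15.9% of all genes called, 6.86% lower and 9.05% higher, and the members' median was -0.40. The 10 that kept their calls were Sparcl1, Efemp1, Thbs2, Ltbp1, Lrat, Mgp, Cygb, Tagln2, Reln and Ecm1, and the member that rose was Prelp (log2 fold change 0.44, adjusted p = 0.0443). The 11 that lost them were Rgs5, Hgf, Colec11, Dcn, Lum, Fmod, Eln, Fbn1, Efemp2, Vim and Tagln, and the fold was smaller without that library for 20 of the 21. Ecm1 was the exception, with -0.51 (adjusted p = 0.0319) and -0.59 (adjusted p = 0.0129).

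The largest falls in sedentary mice were those of Thbs2 (2.54-fold, adjusted p = 0.0019), Sparcl1 (2.49-fold, adjusted p = 0.00066), Fmod (2.49-fold, adjusted p = 0.0482), Eln (2.47-fold, adjusted p = 0.033) and Ltbp1 (2.30-fold, adjusted p = 0.00695). Without sedentary vehicle replicate 2 they were 1.97-fold, 2.10-fold, 1.78-fold (adjusted p = 0.175), 1.43-fold (adjusted p = 0.188) and 1.76-fold. Elastin was at 15.9 CPM in that library, against 2.26 to 4.37 in the other 4 vehicle libraries and 1.60 to 3.07 in the OC group. The groups did not overlap for 3 members, Sparcl1, Efemp1 and Lrat, all lower, when 4.01% of all genes were lower without overlap. Efemp1 was at 16.65, 17.9, 12.6, 16.65 and 15.0 CPM on vehicle and 7.36, 6.96, 7.99, 11.9 and 10.5 CPM on the contraceptives, and its fold of 1.76 (adjusted p = 0.000947) was 1.70 without that library.

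Some of these sedentary calls also missed the threshold when another library was left out, with log2 fold changes close to those with all libraries. The call of Ecm1 was lost without sedentary vehicle replicate 1 or 3 or sedentary OC replicate 1, 2 or 5 (log2 fold change -0.47 to -0.41, adjusted p = 0.0659 to 0.0889), and that of Reln without sedentary OC replicate 1 or 5 (-0.59 and -0.51, adjusted p = 0.0594 and 0.0633). Rgs5, Lum and Tagln lost theirs without sedentary OC replicate 1 (-0.85, -0.87 and -0.55, adjusted p = 0.0598, 0.0602 and 0.0745), and Dcn without sedentary OC replicate 1 or 2 (-0.48 and -0.50, adjusted p = 0.0741 and 0.068). Eln lost its call without sedentary OC replicate 1, 2 or 5 (-1.20, -1.36 and -1.23, adjusted p = 0.084, 0.0524 and 0.0729), and Colec11 without sedentary vehicle replicate 1 or 3 or sedentary OC replicate 1, 2, 3 or 5 (-0.48 to -0.40, adjusted p = 0.0531 to 0.0995). Hgf, Fmod, Fbn1 and Efemp2 lie close to the threshold and lost their calls in 18, 19, 21 and 13 of 27 alternatives, with adjusted p up to 0.143, 0.175, 0.223 and 0.164.

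**Figure D2:**
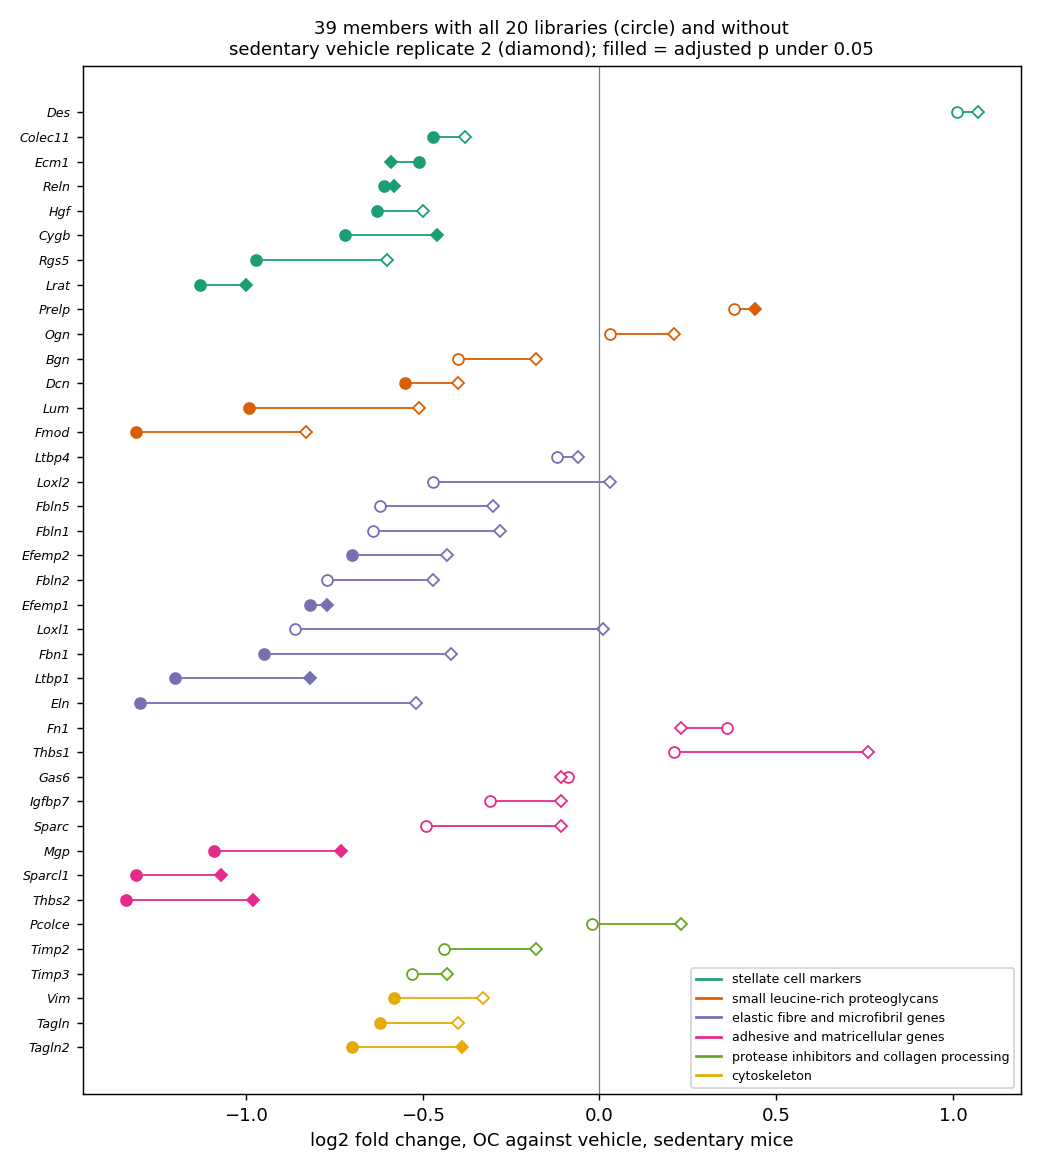
Fitted log2 fold change of the contraceptives in sedentary mice for the 39 tested members, with all libraries (circles) and without sedentary vehicle replicate 2 (diamonds), coloured by role; filled symbols have an adjusted p under 0.05. Of the 21 filled circles 10 keep a filled diamond, and the longest moves towards 0 are those of Loxl1 (-0.86 to 0.01) and Eln (-1.30 to -0.52).

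In running mice, whose groups do not hold that library, 8 of 39 members fell and 0 rose (20.5%), when 13.2% of all genes were called and 6.06% were called lower. The members' median log2 fold change was -0.34 and that of all genes 0.01. The 8 were the stellate cell markers Ecm1 (-0.75, adjusted p = 0.00297), Reln (-0.80, adjusted p = 0.00425), Lrat (-0.91, adjusted p = 0.033) and Hgf (-0.70, adjusted p = 0.0342), the elastic fibre genes Fbln2 (-1.12, adjusted p = 0.014) and Ltbp1 (-1.06, adjusted p = 0.0187), and Sparcl1 (-0.93, adjusted p = 0.0111) and Thbs2 (-0.93, adjusted p = 0.0262). None of the proteoglycans, protease inhibitors or cytoskeletal members passed there. With sedentary vehicle replicate 2 left out of the fit, Rgs5 (-0.79, adjusted p = 0.013) and Fmod (-1.31, adjusted p = 0.0303) passed as well, and 16.2% of all genes were called, 7.84% lower.

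The running groups did not overlap for 7 members, all lower, when 4.95% of all genes were lower without overlap. They were Ecm1, Reln, Sparcl1, Fbln2, Ltbp1, Thbs2 and Fmod, the last at 1.11 to 2.61 CPM on vehicle and 0.373 to 0.982 CPM on the contraceptives. The call of Lrat was lost without running vehicle replicate 1, 2 or 5 or running OC replicate 2, 3, 4 or 5 (log2 fold change -0.88 to -0.80, adjusted p = 0.0596 to 0.0909), and that of Hgf without running vehicle replicate 1, 2 or 5 or running OC replicate 1, 3 or 4 (-0.66 to -0.61, adjusted p = 0.0666 to 0.0926). Thbs2 lost its call without running vehicle replicate 1 or 3 or running OC replicate 1, 3, 4 or 5 (-0.95 to -0.86, adjusted p = 0.0509 to 0.0722), and Ltbp1 without running vehicle replicate 3 or running OC replicate 3 (-1.0 to -0.98, adjusted p = 0.0509 and 0.0512). Ecm1, Reln, Sparcl1 and Fbln2 kept their calls in all 27 alternatives tried.

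The sedentary and running comparisons use separate mice. A log2 fold change below 0 at both activities was found for 33 of the 39 members, and 3 (Prelp, Ogn and Thbs1) were above 0 at both. The 7 called lower at both were Sparcl1, Thbs2, Ltbp1, Lrat, Reln, Ecm1 and Hgf, and 6 of them, all but Hgf, were so without sedentary vehicle replicate 2. Efemp1 fell 1.76-fold in sedentary mice and was at 1.19-fold lower in running mice (adjusted p = 0.282), but its interaction, at 0.57 (SE 0.21), did not pass (adjusted p = 0.219). The same held for Mgp, with an interaction of 0.84 (SE 0.39, adjusted p = 0.272), so that neither gene was shown to respond differently at the 2 activities.

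**Figure D3:**
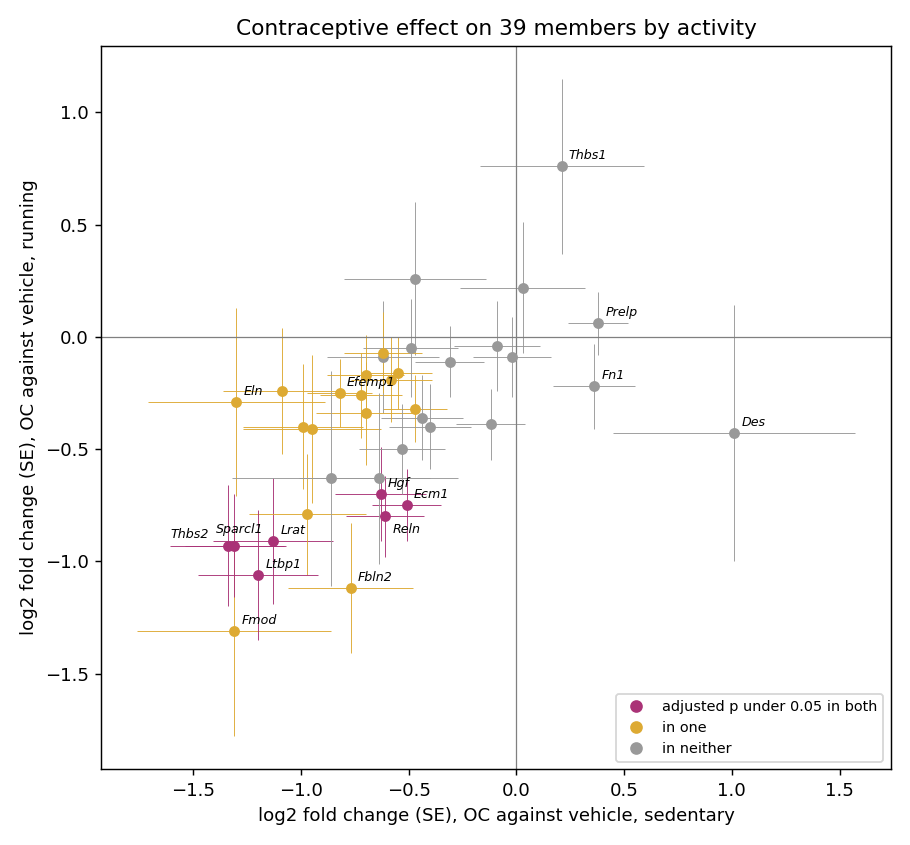
Fitted log2 fold change of the contraceptives in sedentary mice (horizontal) and running mice (vertical) for the 39 tested members, with standard errors as bars and colour for whether the adjusted p was under 0.05 in both, in one or in neither comparison. The 7 members called in both lie at or below -0.51 on the horizontal and -0.70 on the vertical axis, and Des has the widest bars.

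Running against sedentary housing changed no member beyond the threshold. In edgeR 0 of 39 members, and 0 of all 10207 genes, were called on vehicle, on the contraceptives, over both diets or for the interaction of diet and running, and DESeq2 and limma voom also called 0 members. Without sedentary vehicle replicate 2 a single gene, no member, was called over both diets (0.00977%). At an unadjusted p under 0.05 there were 9 members on vehicle, 1 on the contraceptives (Des), 3 over both diets and 5 for the interaction, with 1414, 694, 496 and 1802 of all genes. For running against sedentary housing the smallest adjusted p of a member was 0.228, for Mgp on vehicle (log2 fold change -0.91, SE 0.27). Mgp was at -0.55 (adjusted p = 0.392) without sedentary vehicle replicate 2. On vehicle 32 members were below 0, with a median of -0.27, and without that library 21 were, with a median of -0.04. The median interaction was 0.20 with the library and 0.01 without it.

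Of 10 tested stellate cell genes outside the members 5 fell on the contraceptives over both activities and 0 rose, with a median of -0.42. Of all genes tested 22.9% were called there and 11% were called lower. The 5 were Nes (nestin, -1.0, SE 0.20), Plin2 (a coat protein of lipid droplets that hepatocytes also express, -0.88, SE 0.17), Pth1r (the parathyroid hormone receptor, -0.47, SE 0.09), Angptl6 (-0.49, SE 0.09) and Rspo3 (a WNT enhancer, -0.50, SE 0.09), with adjusted p from 0.000437 to 0.000864. Plin2 was at -0.71 and Rspo3 at -0.44 without sedentary vehicle replicate 2, and all 5 still passed over both activities. All 5 also passed in sedentary mice and in running mice. In sedentary mice Plin2 and Rspo3 no longer passed without sedentary vehicle replicate 2 (adjusted p = 0.0647 and 0.0534). Over both activities 9 of the 10 had a log2 fold change below 0, and 8 did without that library. Tcf21 averaged higher on the contraceptives, at 6.3 against 5.94 CPM in sedentary mice and 6.87 against 4.79 CPM in running mice. Adamtsl2 averaged higher in running mice (13.1 against 10.1 CPM) and lower in sedentary mice (10.1 against 15.9 CPM). Of 9 genes of activated stellate cells only Spp1 and S100a6 had an intact line, and 0 of these 2 passed over both activities in edgeR (1 at an unadjusted p under 0.05). In sedentary mice 1 of the 2 was called lower, and 0 were called without sedentary vehicle replicate 2 (1 at an unadjusted p under 0.05). S100a6 averaged 3.66 CPM in sedentary vehicle and 2.05 CPM in sedentary OC mice, with 6.09 CPM in that library.

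Genes of the other cells of the sinusoid were looked at beside these. Of 14 liver endothelial genes 0 were called over both activities in edgeR (3 at an unadjusted p under 0.05), with a median of -0.19, when 22.9% of all genes tested were called. In all 4 groups some libraries were high or low in both the endothelial and the stellate lists. In the sedentary OC group the mean log2 CPM of the 8 stellate cell markers was 5.29 and 5.31 in replicates 3 and 4 and 4.59 to 4.71 in the other 3. That of the endothelial list was 5.33 and 5.37 in the same pair and 4.79 to 4.89 in the other 3. Running OC replicates 3 and 4 were the lowest of their group in both lists (4.52 and 4.48 for the stellate markers, 4.58 and 4.57 for the endothelium). So were running vehicle replicates 3 and 4 (5.26 and 5.07, and 4.96 and 4.84) and sedentary vehicle replicate 5 (5.14, and 4.77). Other libraries differed between the lists. Sedentary vehicle replicate 2 was the highest of its group for the stellate markers (5.87) but not for the endothelium (5.12). Running OC replicate 1 was the highest of its group for the stellate markers (5.08) but below replicates 2 and 5 for the endothelium (4.86, against 5.36 and 5.18). The range of the endothelial list was 4.77 to 5.25 in sedentary vehicle, 4.79 to 5.37 in sedentary OC, 4.84 to 5.40 in running vehicle and 4.57 to 5.36 in running OC libraries, and for the 8 stellate markers the ranges were 5.14 to 5.87, 4.59 to 5.31, 5.07 to 5.69 and 4.48 to 5.08 in the same order. The diets overlapped in both lists at both activities. The part of this shared variation in the members' fall was not tested.

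**Figure D4:**
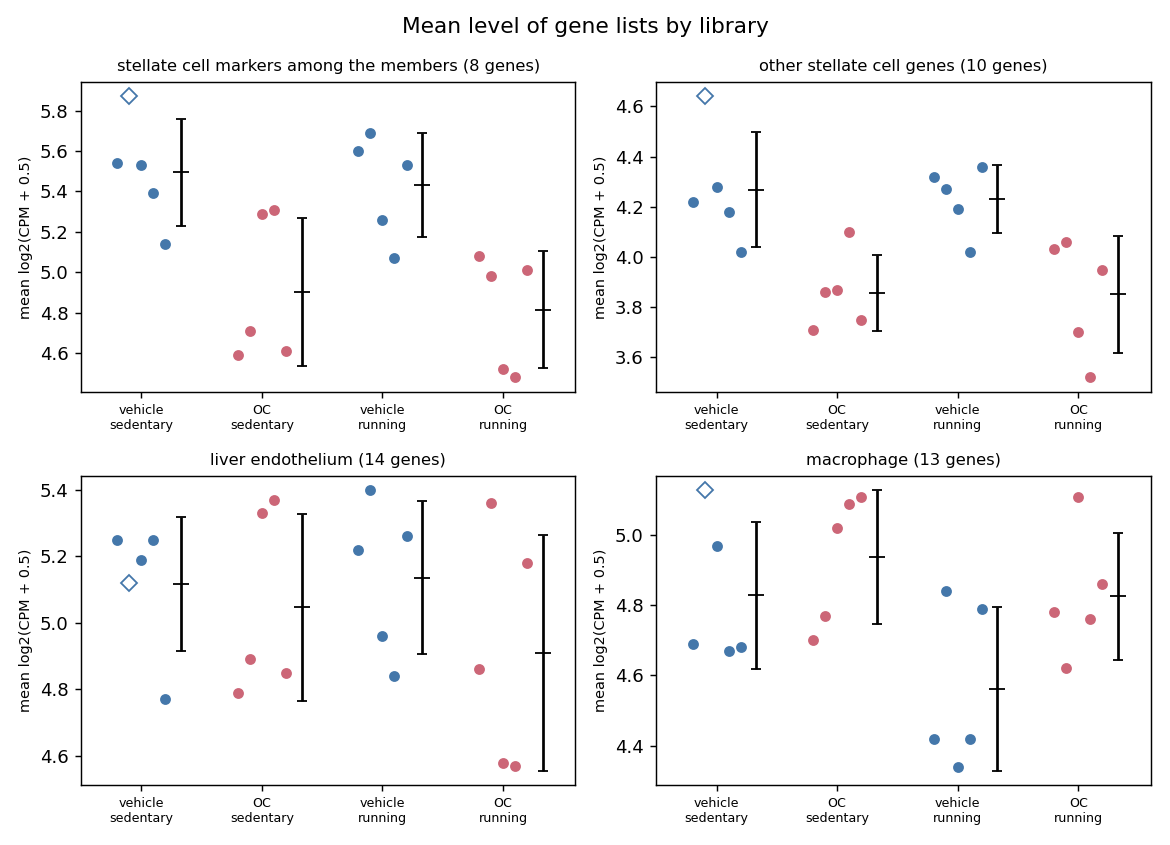
Mean log2(CPM + 0.5) of 4 gene lists in each library by group, with the mean and standard deviation of 5 mice; the open diamond is sedentary vehicle replicate 2. The ranges of vehicle and OC libraries overlap for every list at both activities, by the least for the 8 stellate markers in running mice (5.07 to 5.69 and 4.48 to 5.08).

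For the lists that follow, 22.9% of all genes tested were called over both activities and 11% were called lower. Of 13 macrophage genes 2 rose over both activities and 0 fell, with a median of 0.10, no larger a share than that of all genes called. The 2 were Itgam (1.09, SE 0.18, adjusted p = 0.000184) and Csf1r (0.36, SE 0.10, adjusted p = 0.0142). Among the lymphocyte and neutrophil genes the B-cell receptor genes Cd79a (-1.24, SE 0.23, adjusted p = 0.000558) and Cd79b (-0.64, SE 0.23, adjusted p = 0.0448) fell, the latter not past the threshold without sedentary vehicle replicate 2 (adjusted p = 0.0581). Of 6 cholangiocyte and 3 mesothelial genes 0 were called (3 and 0 at an unadjusted p under 0.05). Among 7 hepatocyte genes 4 fell, with Alb at -0.78 (SE 0.10, adjusted p = 8.49e-06) and Ttr at -0.40 (SE 0.09, adjusted p = 0.00233). The summed level of the hepatocyte list was 162000 to 194000 CPM in sedentary vehicle, 147000 to 204000 in running vehicle, 98200 to 126000 in sedentary OC and 85900 to 123000 in running OC libraries. The part of these other cells' genes in the members' fall was not tested.

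Other matrix genes with intact lines were compared over both activities, where 22.9% of all genes were called. Of 11 tested genes of collagen synthesis and cross-linking, out of 20 listed, 3 were called (27.3%). P3h1, a prolyl hydroxylase, rose (0.24, SE 0.08, adjusted p = 0.0263), and Loxl4 (-0.90, SE 0.24, adjusted p = 0.00912) and P3h3 (-0.43, SE 0.12, adjusted p = 0.0128) fell, with a list median of -0.08. Loxl4 was at -0.75 and P3h3 at -0.35 without sedentary vehicle replicate 2, both still called. Of 13 tested basement membrane genes and proteoglycans, out of 21 listed, 2 were called (15.4%): the heparan sulfate proteoglycan Agrn rose (0.27, SE 0.06, adjusted p = 0.00371) and the syndecan Sdc1 fell (-0.37, SE 0.10, adjusted p = 0.00941). Of 9 tested matrix proteases, out of 16 listed, 1 was called (11.1%), Mmp12 (-2.67, adjusted p = 0.0346), and not without sedentary vehicle replicate 2 (-0.73, adjusted p = 0.187). Of 8 tested genes of TGF-beta and PDGF signalling 0 were called in edgeR (2 at an unadjusted p under 0.05), with a median of -0.13. Without sedentary vehicle replicate 2, 1 rose and 1 fell, when 25.5% of all genes were called, 13.4% higher and 12.2% lower. The remaining 14 of the 22 listed genes of this group are not analysed here.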

How the data were processed

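Liver RNA of 20 mice, 5 in each of 4 groups, was sequenced from stranded paired-end libraries, per the labels' protocols. Plain counts per gene had been assumed when the tests were chosen. Because 2 genes have values that are not whole, the deposited table was treated as possibly holding expected counts. The lines of these 2 genes were not among the intact ones and were dropped, so they do not settle which type the table holds. All values used were whole, so rounding changed none. STAR, limma, R 4.05 and mm10 are named in the submitters' processing notes; the counting program, annotation and strand setting are not given in the sources used here. Of 35504 gene lines 23993 (67.58%) were intact. In the others the values were moved sideways, replaced by text or could not be judged, and these lines were dropped and not repaired. Totals were 10883936 to 16134618 counts per library.

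Genes were filtered with filterByExpr, leaving 10207 with 99.95% of the counts. Libraries were scaled by TMM, and edgeR 4.0.16 (R 4.3.3) quasi-likelihood tests were run with 1 mean per group over all 20 libraries for 7 contrasts. The common biological coefficient of variation was 0.178. Benjamini-Hochberg adjustment ran over all genes tested, with a threshold of 0.05. The SE is the absolute log2 fold change divided by the square root of F. Alternatives were DESeq2 1.42.0 and its size factors, limma 3.58.1 voom, library totals, no filter, the 2 groups compared alone and each library left out in turn. The fits were tested on simulated data. Gene positions and exons came from GENCODE M21, and promoters from RefSeq GRCm38.p6.

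The members and the other gene lists were chosen with earlier results of these data known, so their counts are descriptions. Named are the 24 called members with the smallest adjusted p, and every library's values are given for the first 6 over both activities; other genes were named after their values were seen. From the other lists up to 2 called genes in each direction were named, or all 5 for the stellate cell genes outside the members. A result for a withheld gene is not reported here.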

Additional observations from a re-analysis of the deposited data

Results flagged for a closer look

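In 23 of 156 member and group combinations the highest or lowest of 5 libraries lay apart from the rest by more than 0.71 of the group's range, when chance gives about 1 in 20. Of these, 14 were high values of sedentary vehicle replicate 2. In CPM they were Dcn 298, Lum 27.9, Eln 15.9, Fbln2 6.52, Igfbp7 178, Loxl1 8.35, Loxl2 6.78, Lrat 60.1, Pcolce 15.5, Rgs5 190.0, Sparc 180.0, Tagln2 65.6, Thbs1 7.22 and Vim 66.8.

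In the sedentary OC group Des was at 90.4 CPM and Fbln2 at 3.92 CPM in replicate 3, and Fbln5 was at 5.76 CPM and Lrat at 32.7 CPM in replicate 4, each high. In the running vehicle group Des was high in replicate 2 (28.5 CPM), Gas6 in replicate 3 (226 CPM) and Tagln2 in replicate 1 (29.3 CPM). In the running OC group replicate 1 was high for Lrat (41.4 CPM) and low for Loxl1 (0.442 CPM).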

How the results depend on the processing

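Over 4443 alternative values for the named members 4156 kept their direction and side of the threshold, or stayed within the replicate spread, and 0 reversed a called direction. These values include the running and interaction contrasts, where 0 members were called in any alternative, so that little change was possible there. A call was lost in 191 values. At least 1 alternative lost the call of 14 of 20 named members called in sedentary mice, 4 of 8 in running mice and 8 of 22 over both activities. With library totals only, 12 members were called in sedentary mice, 5 in running mice and 15 over both activities, against 21, 8 and 23, the 12 and the 15 each with 1 higher call, Prelp; that scaling moved the median log2 fold change of all genes to 0.10, 0.12 and 0.11. With only the 2 groups compared, 7 were called in sedentary mice. Leaving out 1 library gave 8 to 24 calls in sedentary mice, 4 to 10 in running mice and 18 to 27 over both activities. The sedentary count was 11 without sedentary vehicle replicate 2, 8 without sedentary OC replicate 1 and 13 without sedentary OC replicate 2 or 5. The running count was 5 without running vehicle replicate 1 or running OC replicate 4 and 4 without running OC replicate 3. Without both sedentary vehicle replicate 2 and sedentary OC replicate 3, an alternative chosen after seeing the data, 11 were called in sedentary mice. The cause was not tested. DESeq2 called 23, 10 and 25 members and limma voom 18, 9 and 22. Prelp was called higher in sedentary mice with library totals only (0.48, adjusted p = 0.0373; 0.33 and 0.0314 over both activities) and without sedentary OC replicate 2 (0.45, adjusted p = 0.0442). Over both activities 14 calls held in every alternative, those of Ecm1, Efemp1, Fbln2, Fmod, Hgf, Lrat, Ltbp1, Lum, Mgp, Reln, Rgs5, Sparcl1, Thbs2 and Timp3. The 4 groups hold separate mice, so there was nothing to pair. The labels carry no replicate numbers, and those used here only follow the order in which the samples are listed. Sedentary vehicle replicate 2 is the library titled Sample_S23. Group means were 0.74 to 2.70 CPM for Fmod and 1.87 to 4.92 CPM for Ltbp1. With 5 mice a group, members at such levels are measured less precisely than Ecm1 or Dcn.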

Other observations

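In running mice the neutrophil genes S100a8 and S100a9, which encode the subunits of calprotectin, rose on the contraceptives by log2 fold changes of 1.79 (SE 0.54, adjusted p = 0.0321) and 1.78 (SE 0.44, adjusted p = 0.0105). Levels were low and the groups overlapped, at 0.468 to 0.918 CPM on vehicle and 0.561 to 6.22 on the contraceptives for S100a8. For S100a9 they were 0.535 to 1.5 and 1.19 to 7.25 CPM. In sedentary mice S100a8 averaged 1.40 CPM on both diets, and S100a9 averaged 2.48 on vehicle and 1.60 on the contraceptives. The metalloproteinase gene Mmp19 (0.56, SE 0.14, adjusted p = 0.0133) and the syndecan gene Sdc3 (0.50, SE 0.14, adjusted p = 0.0175) rose in sedentary mice, and Ppib, a prolyl isomerase of the collagen folding machinery, rose in running mice (0.56, SE 0.14, adjusted p = 0.0133). Vwf, the von Willebrand factor of endothelium, fell in running mice (-0.58, SE 0.19, adjusted p = 0.0487). These genes were named after their values were seen, and the interaction of diet and running passed for 0 of all 10207 genes in edgeR (1802 at an unadjusted p under 0.05), so that none was shown to differ between the 2 activities.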
